A study of Mus musculus with 12 samples.

Results

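Cathepsins are peptidases of the lysosome, and 10 of them were described here in mouse liver: Ctsa, Ctsb, Ctsc, Ctsd, Ctse, Ctsh, Ctsk, Ctsl, Ctss and Ctsz. They were taken by name from the 36528 gene IDs of the count table, and all 10 passed the filter on low counts. RNA was sequenced from whole liver of 12 mice. The control group of 6 mice had received corn oil, and the other 6 carbon tetrachloride (CCl4), which injures hepatocytes and, on repeated dosing, scars the liver; both groups were injected into the peritoneum 3 times per week for 6 weeks. No dose, strain, sex or age is given in the sources used here, and the design text gives n = 6 per group, read here as 6 mice. The question was which of these peptidase transcripts change when the liver is injured over weeks. Levels are CPM, read counts scaled to a common library total with TMM factors, unless another scale is named.

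As background, cathepsins are made as inactive precursors, carried to the lysosome by mannose 6-phosphate and other sorting receptors, and cut to their active form in its acid interior. Most are cysteine peptidases, Ctsd and Ctse are aspartic peptidases, and Ctsa is a serine carboxypeptidase. Endopeptidases cut inside a protein chain, while exopeptidases trim its ends. In the liver all cells hold lysosomes, macrophages are rich in them, and some cathepsins can act outside the cell on matrix proteins.

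Transcripts of 4 of the 10 cathepsins rose in the CCl4 livers and none fell, by edgeR's quasi-likelihood test with Benjamini-Hochberg adjustment over all genes tested and a threshold of 0.05. These were the endopeptidases Ctsk (5.78-fold), Ctss (3.03-fold), Ctsd (1.77-fold) and Ctsb (1.47-fold), each with all 6 CCl4 livers above all 6 oil livers. The 4 exopeptidases Ctsa, Ctsc, Ctsh and Ctsz, and the endopeptidases Ctsl and Ctse, did not pass. The division into endopeptidases and exopeptidases was not a planned comparison and was not tested, and Ctsb also removes dipeptides from chain ends. Of the 16032 genes tested, 20.6% passed upward and 18.4% downward (39% in all), which is the background for 4 of 10 upward and 0 of 10 downward. Groups did not overlap in 20% of genes tested, with CCl4 above oil in 12% and oil above CCl4 in 8.03%, beside 4 of 10 and 0 of 10 cathepsins. The median log2 fold change was 0.13 over the 10 cathepsins and 0.01 over all genes. With upper-quartile scaling these medians were 0.25 and 0.13. With the length slope of the libraries (defined below) as a covariate they were 0.03 and -0.03. In whole liver, fewer cells of a type and less RNA per cell cannot be told apart. The summed level of the 10 was 2730 ± 339.9 CPM in oil (range 2299 to 3239) and 3615 ± 607 CPM in CCl4 (range 2963 to 4377; SD, n = 6 each), with ranges that overlapped.

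**Figure D1:**
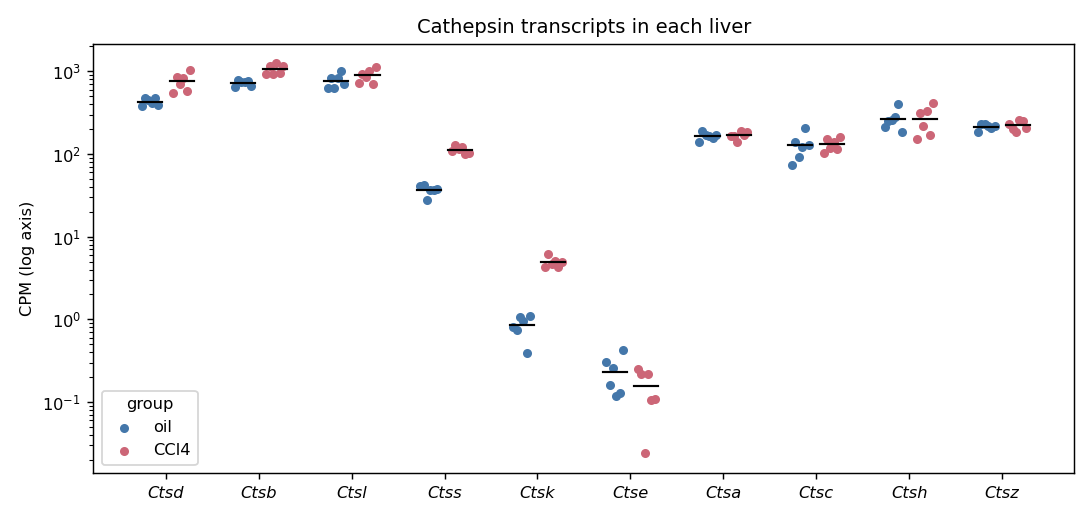
Level of each cathepsin in each of the 12 livers, in CPM on a log axis, with oil in blue, CCl4 in red and a bar at the group mean. The CCl4 livers lie above all oil livers for Ctsd, Ctsb, Ctss and Ctsk, and the groups overlap for the other 6 genes.

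Library totals ran from 43027778 to 70375852 counts. Albumin (Alb), the defining transcript of hepatocytes, stood at 77990 ± 14770 CPM in oil and 77030 ± 15600 CPM in CCl4, in keeping with liver as the labelled tissue. Of 10 hepatocyte markers none rose and 2 fell, Hnf4a and Apob. Of all genes tested 20.6% rose and 18.4% fell, which is the background for this and the other counts of cell type markers. Of 12 markers of macrophages 11 rose and of 12 markers of stellate cells and fibroblasts all 12 rose. The summed level of 7 skeletal muscle markers reached 261 CPM in a CCl4 liver, against at most 0.958 CPM in oil, and that of 7 exocrine pancreas markers reached 297 CPM against 52.1 CPM. The part of such tissue in the cathepsin levels was not tested. The libraries also differed in the balance of long and short transcripts. The length slope was the change per doubling of transcript length in a library's log2 CPM, relative to the mean of the 12 libraries. As a covariate it can thus take up part of a group difference that goes with length. It ran from -0.15 to 0.25 in oil and from -0.38 to 0.16 in CCl4. Its relation to each cathepsin is given below.

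Ctsd encodes cathepsin D, the main aspartic endopeptidase of the lysosome (gene ID 13033, GRCm38.p6, chromosome 7, 142375910 to 142387827, minus strand). The oil livers ran from 382 to 474 CPM with a median of 431. The CCl4 livers ran from 548 to 1035 CPM with a median of 763. The spread among CCl4 livers was thus wide, but the lowest of them still lay above the highest oil liver. The group means were 429 ± 40.5 and 757 ± 188 CPM (SD, n = 6 each), a log2 fold change of 0.82 (SE 0.16, 95% interval 0.48 to 1.16, adjusted p = 0.00106). Before its start lies the E-box CACGTG, the core of the element through which the factors TFEB and TFE3 are known to act on lysosomal genes. It is shown in capitals in a stretch at chr7:142387908-142387937 (minus strand, RefSeq window of GRCm38.p6), with its first base at position -98.
Ctsd: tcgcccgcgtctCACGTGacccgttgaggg
A second CACGTG lay at -245 in the same window. CACGTG, searched on both strands, was found in 7.15% of 32851 windows of 300 bases around gene starts (250 before and 50 after). With a T before it (TCACGTG, an overlapping motif) the share was 3.77%. Of the 250 bases before this start, 211 lie in annotated GENCODE exons. The match is a description of letters, and no binding was measured.

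Ctsb encodes cathepsin B, a cysteine peptidase that also removes dipeptides from chain ends (gene ID 13030, chromosome 14, 63122462 to 63145923). Its level ran from 642 to 784 CPM in oil, with a median of 741. In CCl4 it ran from 925 to 1243 CPM, with a median of 1053. Again no CCl4 liver reached down to the oil range. The means were 721 ± 57.1 and 1062 ± 144.5 CPM, a log2 fold change of 0.56 (SE 0.12, 95% interval 0.31 to 0.81, adjusted p = 0.00201). By CPM, Ctsb and Ctsl were the most counted cathepsins in oil, but these values are not corrected for transcript length.

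Ctsl encodes cathepsin L, a cysteine endopeptidase (gene ID 13039, chromosome 13, 64361890 to 64370772, minus strand). Oil livers ran from 620 to 1006 CPM (median 769), and CCl4 livers from 711 to 1114 CPM (median 891). The ranges overlapped over most of their width. The log2 fold change was 0.21 with a 95% interval of -0.13 to 0.54 (adjusted p = 0.31), so that no change and a rise of up to 0.54 both lie within it.

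Ctss encodes cathepsin S, which stays active at neutral pH and cuts the invariant chain in antigen-presenting cells (gene ID 13040, chromosome 3, 95526786 to 95556405). Ctsk encodes cathepsin K, the collagen-cutting peptidase of osteoclasts that fibroblasts can also make (gene ID 13038, chromosome 3, 95499210 to 95509387). They lie in the same orientation in 1 stretch of chromosome 3, with Ctsk upstream of Ctss. The 250 bases before each start are shown because these neighbours had the largest rises of the 10 cathepsins. The windows are chr3:95526536-95526785 for Ctss and chr3:95498960-95499209 for Ctsk (plus strand, RefSeq, GRCm38.p6), and neither overlaps an annotated exon. Capitals mark GAAA followed by any 2 bases and a further GAAA, a pattern of interferon-response elements.
Ctss: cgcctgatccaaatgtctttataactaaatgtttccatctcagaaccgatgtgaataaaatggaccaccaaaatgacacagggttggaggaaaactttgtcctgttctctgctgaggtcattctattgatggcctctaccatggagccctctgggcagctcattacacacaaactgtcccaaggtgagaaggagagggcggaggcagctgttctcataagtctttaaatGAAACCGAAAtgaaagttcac
Ctsk: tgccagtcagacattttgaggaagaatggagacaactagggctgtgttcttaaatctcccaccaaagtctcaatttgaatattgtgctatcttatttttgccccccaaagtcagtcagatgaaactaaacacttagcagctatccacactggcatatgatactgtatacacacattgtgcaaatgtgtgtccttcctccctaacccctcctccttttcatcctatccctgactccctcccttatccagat
In the Ctss window this pattern began at position -21. An ETS-type GAGGAAGT, matched on the opposite strand as its reverse complement, began at -2 and ran across the start. The Ctsk window held neither of these patterns, nor CACGTG. GAGGAAGT was also found in the window of Ctsc, at -151, and Ctsc did not pass (log2 fold change 0.05, adjusted p = 0.863). Over all windows of 300 bases the interferon-type pattern was found in 3.44% and GAGGAAGT in 3.2%, on either strand.

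Ctss stood between 28.1 and 42.4 CPM in oil, with a median of 37.5. In CCl4 it stood between 98.8 and 127.5 CPM, with a median of 111.5. The groups were far apart and each was narrow. The means of 37.2 ± 4.92 and 112.6 ± 11.2 CPM gave a log2 fold change of 1.60 (SE 0.12, 95% interval 1.34 to 1.86, adjusted p = 5.36e-07).

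Ctsk was a rare transcript in the oil livers, at 0.39 to 1.11 CPM with a median of 0.887, which rests on 15 to 72 counts per library. In the CCl4 livers it stood at 4.32 to 6.25 CPM with a median of 4.81, from 272 to 423 counts. Every CCl4 liver lay above every oil liver. The log2 fold change was 2.53 (SE 0.22, 95% interval 2.06 to 3.00, adjusted p = 1.46e-06), the largest of the 10. Of 7 tested genes that osteoclasts express with Ctsk, 2 rose, Tnfrsf11a (log2 fold change 1.61) and Ocstamp (0.81), and none fell. Among all genes tested 20.6% rose and 18.4% fell. The osteoclast phosphatase Acp5 was at 126.9 ± 13.6 and 129.9 ± 32.1 CPM (adjusted p = 0.878), and the receptors Calcr and Dcstamp were too low to be tested. The 12 stellate cell and fibroblast markers had a median log2 fold change of 2.40, and their summed level went from 234 to 379 CPM in oil to 838 to 1151 CPM in CCl4. Col3a1, a fibrillar collagen, rose by 2.85 and Acta2, the actin of activated stellate cells, by 2.62. The part of these cells in the Ctsk level was not tested.

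Ctse encodes cathepsin E, an aspartic peptidase of the stomach and of some immune cells (gene ID 13034, chromosome 1, 131638314 to 131675507). It was close to absent from the counts, with 5 to 28 per oil library and 2 to 16 per CCl4 library. The levels of 0.117 to 0.432 CPM (median 0.209) and 0.0239 to 0.252 CPM (median 0.165) overlapped. Its log2 fold change of -0.63 had a 95% interval from -1.64 to 0.37 (adjusted p = 0.297), so that neither direction was detectable at this depth. Gastric transcripts were also low: the 9 gastric and gut epithelium markers summed to at most 6.13 CPM in any liver, with Gkn2 at 0 in all 12.

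**Figure D2:**
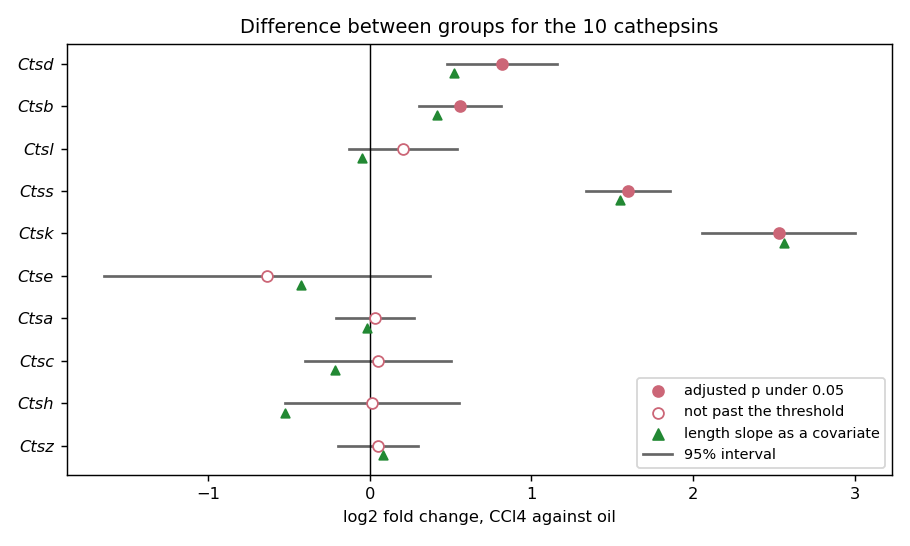
Log2 fold change of CCl4 against oil for each cathepsin (circles) with its 95% interval (lines); filled circles passed an adjusted p of 0.05, and triangles give the estimate when the library's length slope is a covariate. Ctsk, Ctss, Ctsd and Ctsb lie to the right of 0 under either fit, and the triangle of Ctsh lies at -0.52.

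The exopeptidases were not detectably different, with adjusted p from 0.755 to 0.97. None of the 4 passed an unadjusted p of 0.05, and none was called by DESeq2 or limma-voom. At the adjusted threshold edgeR called 39% of the 16032 genes tested in either direction, DESeq2 7243 genes and limma-voom 8738. With the length slope of the libraries as a further term, Ctsh passed as lower (-0.52, adjusted p = 0.000653). Ctsz encodes cathepsin Z, a carboxypeptidase that takes off single residues (gene ID 64138, chromosome 2, 174427494 to 174439039, minus strand). It stood at 183 to 233.5 CPM in oil (median 216) and 183 to 256 CPM in CCl4 (median 219). Its log2 fold change of 0.05 had an interval of -0.20 to 0.30, which lies below the estimate for Ctsb.

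Ctsa encodes cathepsin A, the carboxypeptidase also known as protective protein, which holds lysosomal neuraminidase and beta-galactosidase in a complex (gene ID 19025, chromosome 2, 164832872 to 164841032). Oil livers ran from 139.6 to 190 CPM (median 168) and CCl4 livers from 139 to 192 CPM (median 167). The ranges coincided almost completely. Its log2 fold change was 0.03 (95% interval -0.21 to 0.27). Ctsa too has an E-box beside 1 of its 2 RefSeq starts, in capitals in the last bases before it at chr2:164833749-164833772 (plus strand, RefSeq, GRCm38.p6), with its first base at -12. It is shown as a second cathepsin with these letters, and their part in either level was not tested.
Ctsa: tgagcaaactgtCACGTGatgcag
CACGTG occurred once more at position 6 after this start. Of the 250 bases before it, 164 lie in annotated GENCODE exons. Among the 7 cathepsins with a RefSeq window, CACGTG was found for Ctsa, Ctsd and Ctsl, and not for Ctsc, Ctsk, Ctss or Ctsz. Ctsb, Ctse and Ctsh were not matched to a window.

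Ctsh encodes cathepsin H, an aminopeptidase (gene ID 13036, chromosome 9, 90054267 to 90076095). Its livers were among the most scattered, from 182 to 400.1 CPM in oil (median 254) and from 153 to 409 CPM in CCl4 (median 267). The log2 fold change was 0.01 with a wide interval of -0.53 to 0.55. Ctsc encodes cathepsin C, the dipeptidyl peptidase that activates granule proteases of neutrophils, mast cells and killer cells (gene ID 13032, chromosome 7, 88278024 to 88315861). It ran from 73.9 to 207 CPM in oil (median 124.5) and from 103 to 159 CPM in CCl4 (median 130), with a log2 fold change of 0.05 (interval -0.40 to 0.50). Of the 12 granule proteases listed as its targets only 4 were abundant enough to test, and 1 of them rose, Prtn3, from 5.50 ± 5.03 to 20.3 ± 11.5 CPM (adjusted p = 0.0331). This call was lost with the length slope as a covariate (log2 fold change 1.16, adjusted p = 0.207). Without the covariate 20.6% of all genes tested rose.

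The cathepsins were next set against the macrophage markers in the same liver. The mean log2 CPM of the 12 markers was 4.14 in oil and 5.69 in CCl4, a difference of 1.55, and the markers' summed level went from 254 to 381 CPM to 613 to 1230 CPM. For each cathepsin the log2 CPM minus this mean was compared between groups by an exact two-sided permutation test, adjusted over the 10 genes. For Ctss the distance above the markers was 1.07 ± 0.15 in oil and 1.12 ± 0.28 in CCl4 (difference 0.06, exact p = 0.667 and adjusted p = 0.667), with overlapping livers. Ctsk went further than the markers, by 1.01 (exact p = 0.00433, adjusted p = 0.00481). The other 8 fell behind them, each with the smallest exact p that the design allows (0.00216, adjusted p = 0.00271): the differences were -0.757 for Ctsd and -0.995 for Ctsb, and from -1.58 (Ctsh) to -1.34 (Ctsl) for Ctsa, Ctsc, Ctsh, Ctsl and Ctsz. Ctse, with few counts, had -2.10. The marker means of the groups did not overlap, so a gene with an unchanged level falls behind them by about 1.55. For such genes this p-value restates the rise of the markers and adds nothing about the gene.

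The choice of markers moved the differences of all 10 genes and the calls of Ctss and Ctsd. Csf1r, the receptor of the macrophage growth factor, was the marker that did not pass (log2 fold change 0.40, adjusted p = 0.0684), while Cd68, a lysosomal membrane glycoprotein of macrophages, rose by 2.42 and the surface receptor Adgre1 by 1.46. Against Adgre1 and Csf1r alone, Ctss exceeded the markers by 0.70 (adjusted p = 0.00361) and Ctsd no longer differed from them beyond the threshold (-0.11, adjusted p = 0.446). The other 8 kept their direction and their side of the threshold, with smaller falls behind the markers (-0.35 for Ctsb and -0.79 for Ctsc) and a larger lead for Ctsk (1.66). Markers of monocyte-derived macrophages rose in 9 of 10 genes (median 2.90), among them Trem2 by 4.44 and Ccr2 by 3.06, and markers of resident Kupffer cells in 5 of 8 (median 0.80). The part of each of these cell types in the cathepsin levels was not tested.

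**Figure D3:**
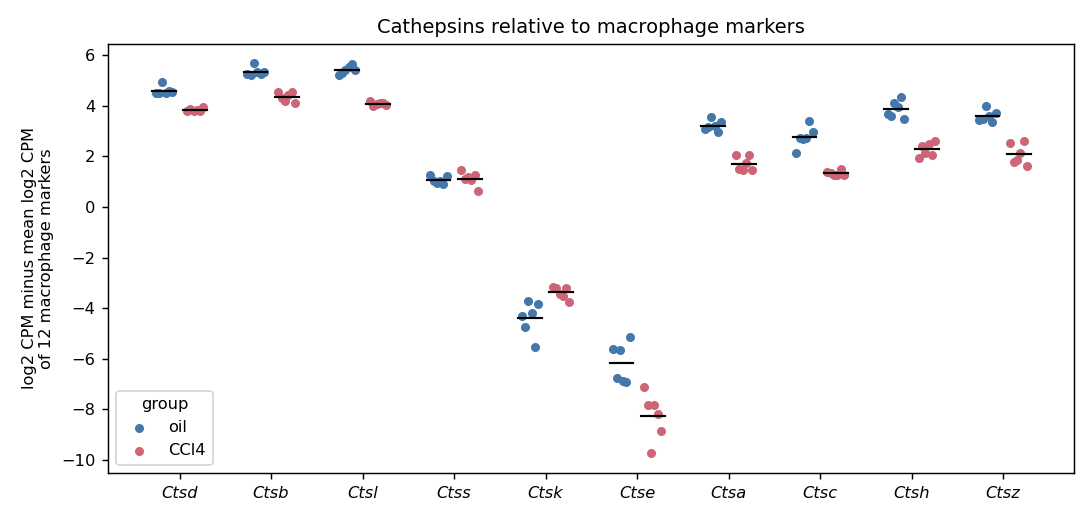
Log2 CPM of each cathepsin minus the mean log2 CPM of 12 macrophage markers in the same liver, with oil in blue, CCl4 in red and a bar at the group mean. The groups overlap for Ctss, the CCl4 mean is higher for Ctsk (by 1.01), and it is lower for the other 8.

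To compare levels between genes, CPM was divided by the length of each gene's exons in kilobases (union of GENCODE M21 exons). On this scale Ctsd was the most abundant cathepsin in oil, at 182 ± 17.2 CPM per kb. Ctsz followed at 148.5 ± 12.9, and Ctsb (119 ± 9.44) and Ctsl (119 ± 23.0) lay next without differing beyond their spread. Below them stood Ctsh at 58.7, Ctsa at 35.0, Ctss at 27.4 and Ctsc at 21.8 CPM per kb, with Ctsk (0.561) and Ctse (0.0737) far under the rest. In CCl4 Ctsd was again first, at 322 ± 79.9 CPM per kb. Ctsb (175.5 ± 23.9) and Ctsz (153.7 ± 19.5) lay closer to each other than their ranges are wide. Ctss moved from rank 7 to rank 5, at 82.9 ± 8.24 CPM per kb, past Ctsh and Ctsa. The order depended on the length used. With the longest transcript Ctss moved from rank 8 to rank 6, past Ctsa and Ctsc, and Ctsh stayed above it at 97.1 ± 36.9 CPM per kb. With the mean length of coding transcripts Ctsd was also first in both groups, but in oil Ctsl (189.5 ± 36.6) and Ctsh (163 ± 46.9) came next and Ctsz was at rank 5.

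As shares of the summed CPM per kb of the 10 genes, 3 cathepsins took a larger part in CCl4 livers and 4 a smaller part, by exact two-sided permutation tests adjusted over the 10. These shares add to 100%, so that a higher share of one gene lowers the others. Ctsd went from 25.6% ± 1.13 to 32.1% ± 3.43, Ctss from 3.88% ± 0.672 to 8.48% ± 1.16, and Ctsk from 0.0807% to 0.332% (exact p = 0.00216 and adjusted p = 0.00722 for each, with no overlap of groups). Ctsz went down from 20.95% ± 1.94 to 15.8% ± 3.32 (exact p = 0.013, adjusted p = 0.0216) and Ctsl from 16.6% ± 1.88 to 13.8% ± 0.702 (exact p = 0.00866, adjusted p = 0.0173). Ctsa went from 4.93% to 3.65% (exact p = 0.00649, adjusted p = 0.0162) and Ctsh from 8.14% to 5.80% (exact p = 0.0216, adjusted p = 0.0309). The shares of Ctsb (16.8% and 17.75%), Ctsc and Ctse did not pass. Ctsb passed without CCl4 replicate 6 (1.29 points, adjusted p = 0.018), and Ctsc without oil replicate 1 (-0.92 points, adjusted p = 0.018) or oil replicate 3 (-0.88 points, adjusted p = 0.0253). The call for Ctsh was lost on leaving out any of CCl4 replicates 1, 3 or 5 or oil replicates 3, 4 or 5 (adjusted p up to 0.0618). With the mean length of coding transcripts in place of the exon union, that for Ctsz was lost (-3.17 percentage points, adjusted p = 0.0541) and Ctsb passed (1.63 points, adjusted p = 0.0433).

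**Figure D4:**
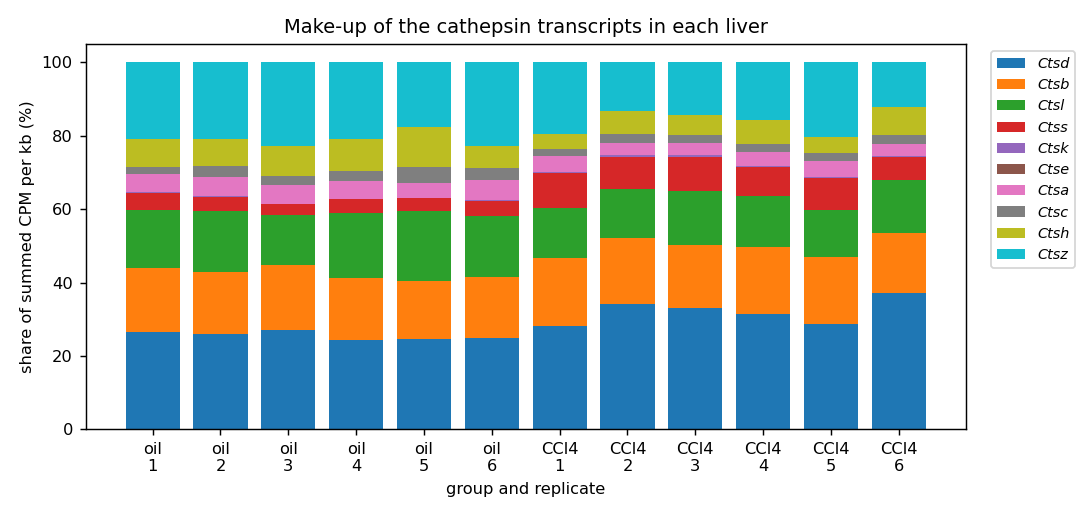
Share of each cathepsin in the summed CPM per kilobase of exon of the 10 genes, in percent, 1 bar per liver. The Ctsd segment covers 24.3% to 27.2% in the oil livers and 28.2% to 37.2% in the CCl4 livers, and the Ctss segment is wider in every CCl4 liver.

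Part of the scatter within groups ran along the length slope of the libraries. Among the CCl4 livers, replicates 2, 4 and 6 were the 3 richest in short transcripts. Ctsh stood at 314 to 409 CPM in these and at 153 to 220 CPM in the other 3. Ctsd stood at 832.5 to 1035 against 548 to 693 CPM, and Ctsb at 1160 to 1243 against 925 to 945 CPM. Ctsl, Ctsc and Ctsk were also higher in all 3 short-rich CCl4 livers than in the other 3, while Ctss, Ctsz, Ctsa and Ctse overlapped. The longest transcripts of the cathepsins higher in the short-rich livers ran from 1512 bases (Ctsk) to 6168 (Ctsl). For those that overlapped they ran from 1355 (Ctss) to 3646 bases (Ctsa), so that a cathepsin's own length did not separate these sets. Among the oil livers the division by slope separated Ctsl, at 831 to 1006 against 620 to 707 CPM. Ctse was separated in the opposite direction, at 0.117 to 0.160 CPM in the short-rich oil livers and 0.258 to 0.432 CPM in the other 3, and the other 8 overlapped. The macrophage mean was also higher in the 3 short-rich CCl4 livers, at 5.86 to 6.07, than in the other 3, at 5.31 to 5.65. When the length slope was added as a covariate, the 4 rises stayed past the threshold: Ctsk 2.56, Ctss 1.55, Ctsd 0.52 (adjusted p = 0.000615) and Ctsb 0.42 (adjusted p = 0.00288). In that fit Ctsh passed as lower in CCl4, at -0.52 (adjusted p = 0.000653), against 0.01 without the covariate. The part of the slope in the group differences was not tested otherwise.

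**Figure D5:**
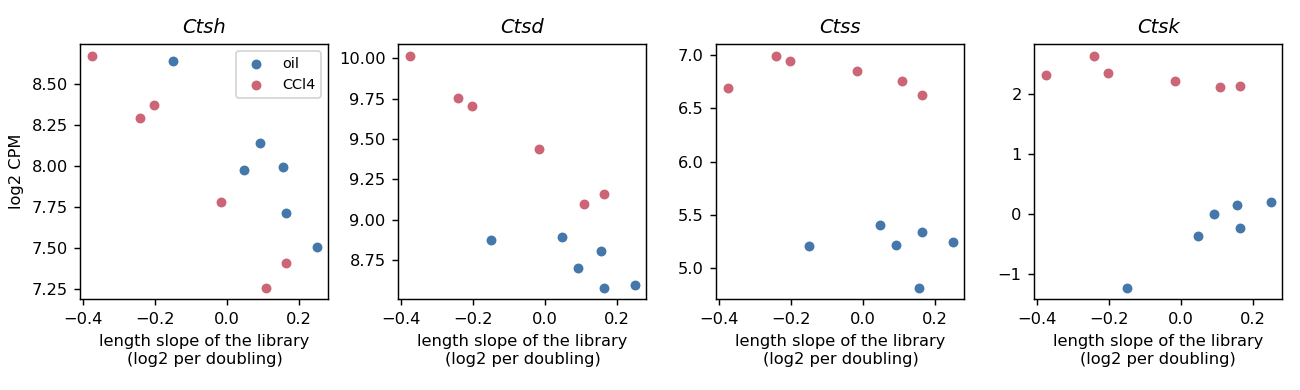
Log2 CPM of Ctsh, Ctsd, Ctss and Ctsk in each liver against the length slope of its library (log2 per doubling of transcript length), with oil in blue and CCl4 in red. Ctsh falls with the slope and its groups overlap. Ctsd falls with it too, over a wider range of levels in CCl4 than in oil livers. Ctss and Ctsk are separated by group at all slopes.

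Other genes named cathepsin were 13 in number, and 8 of them, Ctsm, Ctsq, Ctsr, Cts3, Cts6, Cts7, Cts8 and Ctsll3, had no count in any library. Ctsf, a cysteine endopeptidase (gene ID 56464), fell from 25.2 ± 3.26 to 15.4 ± 2.67 CPM (-0.72 on the log2 scale, SE 0.14, adjusted p = 0.00107), with all oil livers above all CCl4 livers. In the fit without covariates it was the only tested gene named cathepsin that fell. Ctso stood at 69.8 ± 15.9 and 56.8 ± 15.7 CPM (log2 fold change -0.30, adjusted p = 0.246), and at -0.68 once the length slope was a covariate (adjusted p = 2.22e-05). Ctsw, expressed by killer lymphocytes, was below 1 CPM in every liver (adjusted p = 0.808). Ctsg, the neutrophil serine peptidase cathepsin G, had 0 counts in all oil libraries and 0 to 5 in CCl4 libraries, too few to test. Ctsj is a placental cathepsin of a family of close copies. It had 0 to 3 counts in the oil libraries and 30 to 89 in each CCl4 library. Its log2 fold change of 5.19 (adjusted p = 6.86e-06) was the largest of the tested genes named cathepsin. Reads could be shared with its copies.

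Among the 7 other peptidases of the lysosome 3 rose and none fell (median log2 fold change 0.15). The shares of all genes tested were 20.6% risen and 18.4% fallen, which is also the background for the inhibitors below. Lgmn encodes legumain, the asparaginyl endopeptidase that processes cathepsin precursors, and it rose from 53.7 ± 9.10 to 169.7 ± 34.5 CPM (log2 fold change 1.66, adjusted p = 3.14e-06). The aspartic peptidase Napsa rose by 1.88 from a low level of 0.687 ± 0.151 CPM, and the prolylcarboxypeptidase Prcp rose by 0.92. Of 8 tested genes on the list of inhibitors 4 rose and 1 fell. The 6 cystatins, kininogens and Ctla2 genes among them, which act on cysteine peptidases, had 3 risen and none fallen with a median of 1.04, and the other 2 were serpins. Over all 8 the median was 1.04, and 0.42 once the length slope was a covariate. Cstb, the intracellular cystatin B, rose from 39.3 ± 10.1 to 155 ± 81.8 CPM (1.98, adjusted p = 0.000139). Serpinb6a, a cytosolic serpin, rose by 2.23 and Ctla2a, whose product resembles a cathepsin propeptide, by 2.26. Serpinb1a, a serpin of neutrophil proteases, fell by 1.65. Cst3, the secreted cystatin C, stood at 115 ± 23.0 and 161 ± 47.6 CPM and did not pass (adjusted p = 0.0632), nor did the plasma kininogen Kng1 (-0.03).

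Of 15 tested genes that tag and sort lysosomal enzymes none rose and 4 fell (median -0.15): the sorting receptor Sort1 by 1.30, the adaptor Gga2 by 0.73, the receptor Lrp1 by 0.85 and the membrane receptor Scarb2 by 0.39. With the length slope as a covariate 1 rose and 6 fell, and with upper-quartile scaling 3 fell, without Scarb2 (adjusted p = 0.0725). In the TMM-scaled fit without covariates 20.6% of all genes tested rose and 18.4% fell. These shares are the background for each list of lysosomal genes here. The mannose 6-phosphate receptors M6pr (0.18) and Igf2r (0.09) and the tagging enzyme Gnptab (-0.29) did not pass. Of 16 proton pump subunits 8 rose and none fell (median 0.48), with Atp6v0d2, a subunit of macrophages and osteoclasts, up from 2.38 ± 0.823 to 9.94 ± 0.869 CPM and Atp6v1b2 higher by 0.62. The median of the pump list was 0.15 (7 risen) with the length slope as a covariate, and 12 rose under upper-quartile scaling. Of 30 other lysosomal hydrolases 10 rose and 3 fell (median 0.07). The phospholipase Pla2g15 rose by 0.55, while the glucosidase Gaa fell by 1.08. Among 14 lysosomal membrane genes 2 rose and 4 fell (median -0.10), or 3 and 2 with upper-quartile scaling (median 0.02), with Cd63 at 2.61 ± 0.837 and 43.3 ± 17.3 CPM and Lamp1 at 818 ± 52.9 and 800.1 ± 82.6 CPM (adjusted p = 0.829). Of 3 activator proteins Npc2 (0.75) and Gm2a (0.41) rose.

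Of 8 transcription factors and regulators of lysosomal genes 1 rose, Tfec, a relative of TFEB found in macrophages, from 1.74 ± 0.286 to 3.12 ± 0.898 CPM (adjusted p = 0.0058). Across all genes tested 20.6% rose and 18.4% fell. Tfeb itself stood at 8.60 ± 1.11 and 7.85 ± 1.04 CPM (adjusted p = 0.441), and Tfe3 at 31.4 ± 4.30 and 26.7 ± 7.25 CPM (adjusted p = 0.29). Transcript levels of these factors do not give their activity, which depends on their place in the cell. In the class II pathway that uses cathepsin S, 6 of 10 genes rose and none fell (median 0.69). With the length slope as a covariate 3 rose (median 0.42), and without CCl4 replicate 6 and oil replicate 5, each the richest of its group in short transcripts, 3 rose (median 0.53). H2-DMa and H2-DMb1, which load peptides, rose by 0.87 and 1.17, and H2-Oa rose by 1.57 from under 1 CPM. The substrate of cathepsin S, the invariant chain Cd74, stood at 87.9 ± 20.5 and 88.3 ± 11.6 CPM (log2 fold change 0.01, adjusted p = 0.978). Markers of dendritic cells rose in 6 of 8 genes (median 1.16), of B and plasma cells in 5 of 8 and of T and NK cells in 1 of 9, with 2 lower. Their part in the Ctss level was not tested.

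The genes most like each cathepsin were found by Pearson's r of deviations from the group means over the 12 libraries, among 10972 genes whose mean log2 CPM was 1 or more. The values are a description, and the libraries differ in their length slope. By the same measure, r with the length slope was -0.968 for Ctsh, -0.919 for Ctsd, -0.894 for Ctsl, -0.801 for Ctsb and -0.707 for Ctsc. It ran from -0.269 (Ctsa) to 0.27 (Ctsk) for the rest. The part of the slope in the likeness values was not tested. For Ctsh the nearest was Cops5 (0.992), for Ctsd Gcat (0.983), for Ctsl Yif1a (0.971) and for Ctsc Il13ra1 (0.967). Ctsb was nearest to Atp5d (0.955) and Ctsa to the lysosomal thioesterase Ppt2 (0.926). Lower values were found for Ctsk with Cyth3 (0.889) and for Ctss with Mterf2 (0.883), with the lymphocyte receptor Ly9 at 0.87 for Ctss. The lowest was that of the near-absent Ctse, at 0.786 with Tmem19. Among the cathepsins themselves, the highest was 0.912 for Ctsd with Ctsh, followed by 0.875 for Ctsc with Ctsl and 0.873 for Ctsh with Ctsl, while Ctsa was nearest to Ctsz (0.801). For Ctss no other cathepsin exceeded 0.363, and for Ctsk and for Ctse none exceeded 0.402.

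Spans of 4 cathepsins overlap another protein-coding gene, and whether counting used strand could not be read from the labels. Ctsa overlaps Pltp (log2 fold change -0.19, adjusted p = 0.367) and Neurl2 (-0.59, adjusted p = 0.00767), Ctsb overlaps Fdft1 (-0.18, adjusted p = 0.52), and Ctsz overlaps Nelfcd (-0.25, adjusted p = 0.133). Each of these partners stood at a lower CPM than the cathepsin it overlaps. Ctsd overlaps Gm49369 on the same strand.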

How the data were processed

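Whole-liver RNA of 12 mice was column-purified and sequenced from stranded total RNA libraries, per the labels' protocols. The authors deposited raw read counts per gene; the build was GRCm38 per the submitters' processing notes, and aligner, counting tool and use of strand are not given in the sources at hand. Totals ran from 43027778 to 70375852 counts, so that genes under 1 CPM rest on few counts. Of the gene IDs, 31049 were named from RefSeq and 78 from GENCODE M21; 5401 had no name (2.19% of counts).

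The whole table was filtered (filterByExpr), TMM-scaled and tested with edgeR 4.0.16 in R 4.3.3 (robust quasi-likelihood F test, Benjamini-Hochberg over 16032 genes, threshold 0.05). For log2 CPM the prior count was 2. Standard errors are the log2 fold change divided by the square root of F. Shares and differences from macrophage markers were tested by exact two-sided permutation (6 against 6, smallest p 0.00216). Scripts were tested on simulated counts. Alternatives were other scalings, filters, thinning, DESeq2 1.42.0, limma 3.58.1 (voom), the length slope as a covariate, other transcript lengths and leaving out livers; the mean coding transcript length, levels per kilobase with other lengths and the inhibitors without serpins were added after seeing the data.

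Members and gene lists were chosen with earlier results of these data known. The text names, of each list, up to 3 genes with the smallest p and the called gene against the majority, and for each cathepsin the most like genes; Lrp1, M6pr, Igf2r, Gnptab, Tfeb, Tfe3, Cst3, Kng1, Cd74, Csf1r, Adgre1, Lamp1, Acp5, Calcr, Dcstamp, Alb and Gkn2 were chosen after their values were seen. Some genes these rules pick are not reported here.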

Additional observations from a re-analysis of the deposited data

Results flagged for a closer look

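Among 28 groups of 6 livers checked for a value far from the others, 1 had such a value, and chance alone flags about 1 in 20 groups. Ctss stood at 28.13 CPM in oil replicate 3, while the other 5 oil livers lay between 37.0 and 42.4 CPM, a gap of 0.667 of the whole range of log2 CPM against a critical value of 0.625. On the CPM scale the gap was 0.621 of the range, under that value. Leaving out each liver in turn, the log2 fold change of Ctss ran from 1.52 to 1.63.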

How the results depend on the processing

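Under 22 alternatives the number of cathepsins risen stayed at 4, and the number fallen at 0 except with the length slope as a covariate, where it was 1 (Ctsh). That covariate also turned the sign of uncalled genes: Ctsa to -0.0146 and Ctsc to -0.2151, Ctsl to -0.0459, and Ctsh to -0.5234. Without CCl4 replicate 6 and oil replicate 5, the libraries richest in short transcripts, Ctsa was at -0.0113, and with upper-quartile scaling Ctsw was at 0.0250. Upper-quartile scaling moved the median of all genes to 0.13 and the share of calls that were rises from 52.8% to 67.3%. All genes risen ran from 2723 to 4394 and fallen from 2022 to 4344 over these settings.

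Leaving out each liver in turn, log2 fold changes ran from -0.0458 to 0.0683 for Ctsa, from -0.0860 to 0.2406 for Ctsc, from -0.1488 to 0.1660 for Ctsh, from -0.0255 to 0.0729 for Ctsz and from -0.2186 to 0.0789 for Ctsw, so that their sign is not settled. The difference of Ctss from the macrophage markers ran from -0.0071 (without CCl4 replicate 1) to 0.1571. With Adgre1 and Csf1r as the markers, the number of cathepsins higher against them was 2 instead of 1. Shares higher ran from 3 to 4 cathepsins and shares lower from 3 to 5. Once the length slope entered as a covariate, log2 fold changes of Prcp (0.61), Npc2 (0.32), Tfec (0.49), H2-DMb1 (0.60), H2-DMa (0.58), Gga2 (-0.47) and Gaa (-0.68) shrank by over 1.5 times and still passed. The cause of these shifts was not tested. Ctse could not be tested in 2 settings, 1 of them the stricter filter of 50 counts. Depth limits Ctse, Ctsw and Ctsj, which rest on fewer than 100 counts per library. No paired analysis was possible because the labels give no replicate number shared between the groups.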
